A study of Rattus norvegicus with 24 samples.

Results

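Clca1, Pcdh10, Serpinb9, Gpr37, Tmem35a, Zbtb40 and Spon1 are 7 genes less known in the mammary response to estrogen. They were picked in these same arrays for a large rise with estradiol or for a dose response that differed between the sexes. Every probe set of the deposited table annotated to 1 of these genes alone was taken, which gave 10 probe sets of 31042 tested and 7 genes of 14217. Clca1, Serpinb9 and Zbtb40 each had 2 probe sets and the other members 1. For a gene with 2, the probe set with the wider range over the arrays is called the lead probe set. Because the members were chosen on these values, their levels are given as a description and no test was applied to them.

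The study asked how added estrogen affects the mammary gland of prepubertal rats. Total RNA came from frozen abdominal mammary glands of Sprague-Dawley rats and was hybridised to 24 Affymetrix arrays. Osmotic pumps under the skin released 17β-estradiol from postnatal day 21 to postnatal day 33. The male groups received 0, 0.1, 1 or 10 µg per kg per day, and the female groups received the same 4 doses, with 3 arrays in each of the 8 groups. The labels carry no genotype, and the arrays at 0 are the pump groups without estradiol. The labels mention no removal of ovaries or testes. No label ties an array to 1 animal, so the errors and p-values below cover the spread among arrays of a group, some of which may be technical.

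Estradiol acts mainly through estrogen receptors, transcription factors that bind the hormone and then regulate genes, often from DNA sites built on the 6-base motif AGGTCA. In the mammary gland the receptor sits in part of the luminal epithelial cells and in stroma, and estrogen at puberty drives the ducts to lengthen and branch into the fat pad. The members have unlike roles. Clca1 encodes a secreted regulator of calcium-activated chloride channels that is best known from mucus-producing goblet cells. Gpr37 encodes a G protein-coupled receptor related to the endothelin receptors and is best known from glia and neurons. Serpinb9 encodes an inhibitor of granzyme B, a protease of cytotoxic lymphocytes. Spon1 encodes F-spondin, a matrix protein with thrombospondin type 1 repeats, and Pcdh10 encodes a delta-type protocadherin, a cell adhesion protein. Tmem35a encodes a chaperone that helps nicotinic acetylcholine receptors to assemble. Zbtb40 encodes a zinc finger protein with a BTB domain.

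The promoter windows of 3 members are shown because their arrays gave the largest differences at 10 in males. RefSeq's promoter table (build GRCr8) held 6 of the 7 members, and Spon1 is named only. Each window is the 250 bases before the annotated start, 5′ to 3′ on the gene's strand, and capitals mark AGGTCA read on either strand. The Zbtb40 window is chr5:154567174-154567423 on the minus strand, the Tmem35a window chrX:101796373-101796622 on the plus strand and the Clca1 window chr2:236624715-236624964 on the minus strand.
Zbtb40: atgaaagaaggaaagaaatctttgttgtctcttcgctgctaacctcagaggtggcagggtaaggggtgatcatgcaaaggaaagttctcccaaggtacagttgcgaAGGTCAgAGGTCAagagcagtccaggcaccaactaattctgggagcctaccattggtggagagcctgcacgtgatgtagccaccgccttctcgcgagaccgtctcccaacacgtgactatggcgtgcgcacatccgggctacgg
Tmem35a: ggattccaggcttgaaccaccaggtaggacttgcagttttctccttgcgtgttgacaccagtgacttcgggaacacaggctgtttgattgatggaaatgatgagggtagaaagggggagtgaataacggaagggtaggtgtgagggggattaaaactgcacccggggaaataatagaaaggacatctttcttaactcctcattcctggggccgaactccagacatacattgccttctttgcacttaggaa
Clca1: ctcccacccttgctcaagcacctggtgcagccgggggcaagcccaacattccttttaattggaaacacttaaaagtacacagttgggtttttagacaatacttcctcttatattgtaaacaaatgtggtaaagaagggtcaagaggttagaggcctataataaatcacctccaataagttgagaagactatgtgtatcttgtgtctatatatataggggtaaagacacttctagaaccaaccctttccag

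Zbtb40 was the member among these 6 whose window held AGGTCA. It held 2 copies on the gene's own strand, at positions -144 and -137 relative to the annotated start, as a direct repeat with 1 base between. AGGTCA occurred in 14.1% of the 33469 promoter windows of the table, and the repeat AGGTCANAGGTCA, a motif added after the sequence was seen, in 17 of them (0.0508%). The palindrome GGTCANNNTGACC, which is the full estrogen response element and a layout other than the direct repeat, occurred in 0.0239% of windows and in 0 of the 6 members. The letters TGANTCA, found in 6.34% of windows, were in none of the 6. GGGCGG, found in 30.5% of windows, was in the Pcdh10 window alone among them. These matches describe letters in 1 annotated window per gene, both strands were read, and the repeat contains the 6-base motif by construction. Whether the probe sets report transcripts that start there, and whether estrogen receptors bind the repeat, was not tested.

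The deposited values are signed and centred within each sex. The 12 arrays of a sex had a median within 0.1 of 0 in 91.2% of probe sets for males and 94.6% for females, and the 4 probe sets of Xist averaged 0.03 ± 0.13 in males and -0.05 ± 0.15 in females (SD, n = 12 each). A level can therefore be compared between doses of 1 sex, but not between males and females or between genes. The values were read as log2, a base the sources used here do not state, so folds rest on that reading. Neither the tissue nor the sex labels could be checked from centred values. The hepatocyte marker list, 16 genes of liver cells, was high in 5 arrays, with list means of 0.87 to 2.50 against 0.22 or less in the other 19. These 5 arrays were 2 male arrays at 0, 1 male array at 1, 1 female array at 0 and 1 female array at 1. Leaving them out leaves 1 male and 2 female arrays at 0.

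In males, 6 of the 7 members had all 3 arrays at 10 above all 3 arrays at 0, beside 18.2% of all probe sets that were separated in this way. The member set apart was Pcdh10. The median difference of 10 from 0 over the 7 lead probe sets was 2.37 on the log2 scale, beside -0.0053 over all probe sets. At 1, 6 of 7 members were again separated upward from 0, beside 12% of probe sets, and here Zbtb40 was the one that overlapped. At 0.1, 2 of 7 members were separated upward, beside 8.32%. These counts follow in part from how the members were picked. Males thus showed 3 dose shapes. Clca1, Gpr37, Serpinb9 and Spon1 were high at both 1 and 10, Pcdh10 was high at 1 alone, and Tmem35a and the lead probe set of Zbtb40 stood out at 10.

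**Figure D1:**
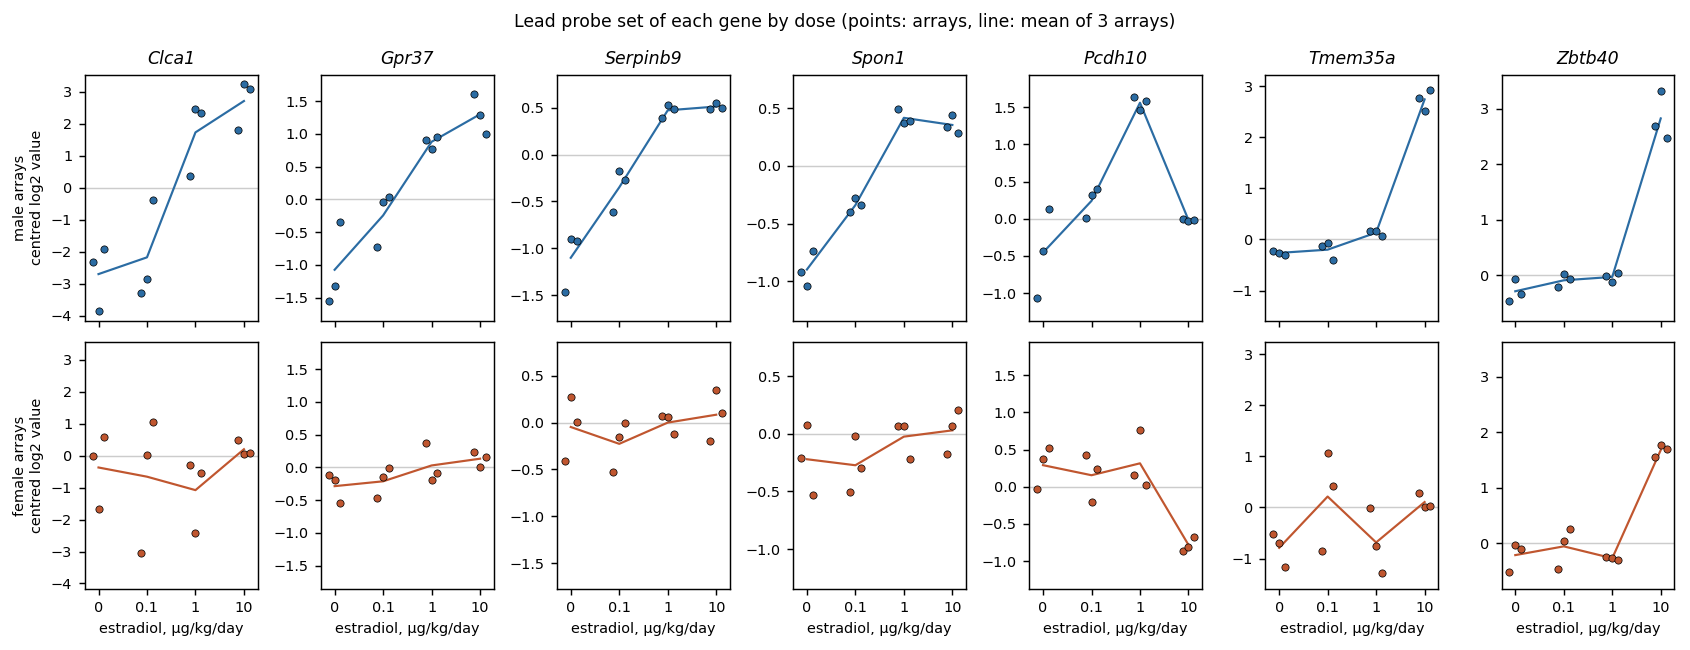
Deposited log2 value of the lead probe set of each member (vertical axis) by estradiol dose in µg per kg per day (horizontal axis, 0 to 10), with males in the upper row and females in the lower row; points are arrays and the line joins means of 3. In males Clca1 averaged 2.71 at 10 against -2.70 at 0, Pcdh10 peaked at 1 with 1.56, and Zbtb40 left the range of its other doses at 10 alone.

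Clca1, the goblet cell chloride channel regulator, had the largest differences from 0 of the members in males at 1 and 10. In males its lead probe set read -2.34, -3.86 and -1.92 at 0, -3.30, -2.86 and -0.38 at 0.1, 0.38, 2.46 and 2.35 at 1, and 1.81, 3.24 and 3.08 at 10. Every array at 1 and 10 lay above 0 and every array at 0 and 0.1 below it, while arrays at 1 and 10 overlapped each other. The difference was 5.41 ± 0.95 (SE) at 10 against 0, or 42.6-fold, and 4.43 ± 0.95 at 1 against 0, or 21.6-fold. Ranked from the highest among 31042 probe sets, these differences stood at 2 and 1. At 0.1 the difference from 0 was 0.52, less than its standard error. The spread within a group was wide, with SDs of 1.02 at 0, 1.58 at 0.1, 1.17 at 1 and 0.78 at 10 in males (n = 3 each).

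In females Clca1 showed no such separation from 0. Its arrays read -0.02, -1.66 and 0.57 at 0, -3.05, 0.02 and 1.05 at 0.1, -0.28, -2.42 and -0.53 at 1, and 0.48, 0.04 and 0.08 at 10. The female groups at 0.1, 1 and 10 each overlapped the group at 0, and single arrays at 0.1 and 1 were as low as -3.05 and -2.42. The arrays at 10 lay above those at 1. The female difference of 10 from 0 was 0.57 ± 0.95 and lay between -0.08 and 1.04 when single arrays at 0 or 10 were left out. The male minus female difference of these differences was 4.84 ± 1.35 at 10 and 5.14 ± 1.35 at 1, where it ranked 1 among all probe sets. The second probe set of Clca1 gave 5.19 ± 0.87 in males and 0.86 ± 0.87 in females for 10 against 0. Over the 24 arrays the 2 probe sets differed by a median of 0.13 and at most 0.60.

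Gpr37, the receptor related to the endothelin receptors, had a higher male mean at each dose than at the dose below it. Its arrays read -1.55, -1.32 and -0.35 at 0, -0.73, -0.03 and 0.03 at 0.1, 0.91, 0.77 and 0.96 at 1, and 1.60, 1.29 and 1.00 at 10. The groups at 0 and 0.1 overlapped, and each higher dose lay wholly above the one before it. The difference from 0 was 0.83 ± 0.25 at 0.1, 1.95 ± 0.25 at 1 and 2.37 ± 0.25 at 10, the last being 5.18-fold. In females the arrays read -0.12, -0.19 and -0.54 at 0, against 0.23, 0.01 and 0.16 at 10, a difference of 0.42 ± 0.25 with all 3 arrays at 10 above all 3 at 0. The female groups at 0.1 and 1 overlapped the group at 0. Between the sexes, male minus female, this difference at 10 was 1.95 ± 0.36.

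Serpinb9, the granzyme B inhibitor, reached its upper level in males at 1. Its lead probe set read -1.47, -0.90 and -0.93 at 0, -0.61, -0.17 and -0.27 at 0.1, 0.39, 0.53 and 0.49 at 1, and 0.49, 0.55 and 0.49 at 10. The groups at 0, 0.1 and 1 did not overlap, while those at 1 and 10 did and differed by 0.04 ± 0.18. The difference from 0 was 0.75 ± 0.18 at 0.1, 1.57 ± 0.18 at 1 and 1.61 ± 0.18 at 10, the last being 3.06-fold. The second probe set gave 1.53 at 1 and 1.32 ± 0.16 at 10 against 0, and the pair differed by at most 0.28 on any array. In females all doses overlapped 0, and the difference at 10 was 0.13 ± 0.18, between -0.05 and 0.29 under the other settings tried. Male minus female, it came to 1.48 ± 0.26 at 10.

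Spon1, which encodes the matrix protein F-spondin, had the same shape as Serpinb9 with a narrower spread. In males its arrays read -0.92, -1.04 and -0.74 at 0, -0.40, -0.28 and -0.34 at 0.1, 0.49, 0.37 and 0.39 at 1, and 0.34, 0.44 and 0.28 at 10. Each dose up to 1 lay wholly above the one below it, and the arrays at 1 and 10 overlapped. The difference from 0 was 0.56 ± 0.14 at 0.1, 1.31 ± 0.14 at 1 and 1.25 ± 0.14 at 10, the last being 2.38-fold. In females every dose overlapped 0, with a difference of 0.25 ± 0.14 at 10. Male minus female, the value at 10 was 1.00 ± 0.20.

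Pcdh10, the protocadherin, was highest in males at 1 and not at the top dose. In males its arrays read -1.07, -0.43 and 0.13 at 0, 0.0037, 0.31 and 0.40 at 0.1, 1.64, 1.46 and 1.58 at 1, and -0.0037, -0.03 and -0.02 at 10. The group at 1 stood above the other 3 male groups, and the group at 10 lay inside the range of the group at 0. The difference from 0 was 2.02 ± 0.24 at 1, or 4.04-fold, and 0.44 ± 0.24 at 10. The value at 10 depended on the control arrays, with 0.13 when the first male array at 0 was left out and 0.73 when the third was. Without the 5 arrays high in hepatocyte markers it was 1.05, with a single male array left at 0. The difference of 10 from 1 was -1.58, rank 7 from the lowest of all probe sets.

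In females Pcdh10 was lower at 10 than at any other dose. Its arrays read -0.03, 0.38 and 0.52 at 0, 0.43, -0.21 and 0.24 at 0.1, 0.16, 0.76 and 0.03 at 1, and -0.87, -0.80 and -0.68 at 10. The first 3 doses overlapped, and all 3 arrays at 10 lay below them. The difference of 10 from 0 was -1.07 ± 0.24, between -1.25 and -0.96 under the other settings tried. The male minus female difference was 1.51 ± 0.33 at 10 and 1.99 at 1.

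Tmem35a, the nicotinic receptor chaperone, was high in males at the top dose. Its arrays read -0.22, -0.27 and -0.30 at 0, -0.14, -0.07 and -0.40 at 0.1, 0.17, 0.16 and 0.07 at 1, and 2.78, 2.52 and 2.93 at 10. The group at 1 lay just above the groups at 0 and 0.1, and the group at 10 lay far above all of them. The difference from 0 was 0.06 at 0.1, 0.40 ± 0.34 at 1 and 3.0 ± 0.34 at 10, the last being 8.02-fold. The difference of 10 from 1 was 2.61, rank 7 from the highest of all probe sets.

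The female values of Tmem35a were scattered. They read -0.52, -0.69 and -1.16 at 0, -0.86, 1.07 and 0.42 at 0.1, -0.0042, -0.76 and -1.29 at 1, and 0.29, 0.0042 and 0.02 at 10. The arrays at 10 lay above those at 0, while the group at 0.1 held both the highest female array and one of the lowest. The female difference of 10 from 0 was 0.90 ± 0.34 and the male minus female difference was 2.11 ± 0.48. The standard error pools the spread of all 8 groups, and the SD was 0.21 in males and 0.16 in females at 10 but 0.98 in females at 0.1 (n = 3 each).

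Zbtb40, the BTB zinc finger gene, was high at 10 in both sexes on its lead probe set. In males this probe set read -0.46, -0.07 and -0.35 at 0, -0.22, 0.01 and -0.07 at 0.1, -0.01, -0.13 and 0.04 at 1, and 2.69, 3.32 and 2.47 at 10. In females it read -0.52, -0.03 and -0.10 at 0, -0.47, 0.03 and 0.26 at 0.1, -0.25, -0.27 and -0.30 at 1, and 1.56, 1.78 and 1.70 at 10. In either sex the doses of 0, 0.1 and 1 overlapped and the 3 arrays at 10 stood more than 1 unit above every other array. The difference of 10 from 0 was 3.12 ± 0.19 in males, or 8.67-fold, and 1.89 ± 0.19 in females, or 3.72-fold. The male minus female difference was 1.22 ± 0.27. Against 1, the arrays at 10 were higher by 2.86 in males, rank 4 of all probe sets, and by 1.95 in females, rank 9.

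The second probe set of Zbtb40 did not share this pattern. In males it read -0.10, 0.28 and 0.16 at 10, against -0.09, 0.13 and -0.01 at 0, with overlapping arrays. Its difference of 10 from 0 was 0.10 ± 0.12 in males and -0.07 ± 0.12 in females. The pair of probe sets lay up to 3.04 apart on 1 array, with a median gap of 0.32. A mean over both gave 1.61 in males and 0.91 in females. Which transcripts either probe set reports was not tested, so the value of 3.12 belongs to 1 probe set annotated to the gene.

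**Figure D2:**
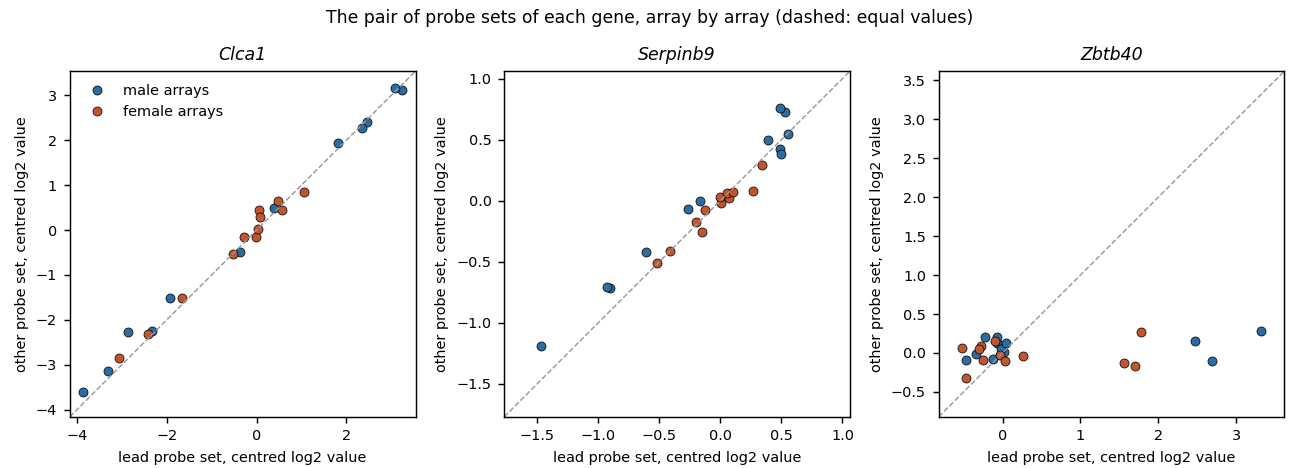
Lead probe set (horizontal axis, log2 value) against the other probe set (vertical axis, log2 value) for Clca1, Serpinb9 and Zbtb40, one point per array over 24 arrays, with the line of equality dashed. The points of Clca1 and Serpinb9 follow the line, with gaps of at most 0.60 and 0.28, while those of Zbtb40 part by up to 3.04.

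In females, 3 of the 7 members were separated upward at 10 against 0 (Gpr37, Tmem35a and Zbtb40), beside 9.67% of all probe sets. Pcdh10 was separated downward, beside 10.2%. At 1 against 0 and at 0.1 against 0 the count was 0 of 7 in females, beside 2.92% and 4.93% of probe sets separated upward. The median over the members at 10 was 0.42 in females, beside -0.0053 over all probe sets. For every member the male difference of 10 from 0 was larger than the female one, a direction used in choosing them. The comparisons at 0.1, 1 and 10 share the arrays at 0 of their sex, so an array at 0 that stands apart moves all of them.

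**Figure D3:**
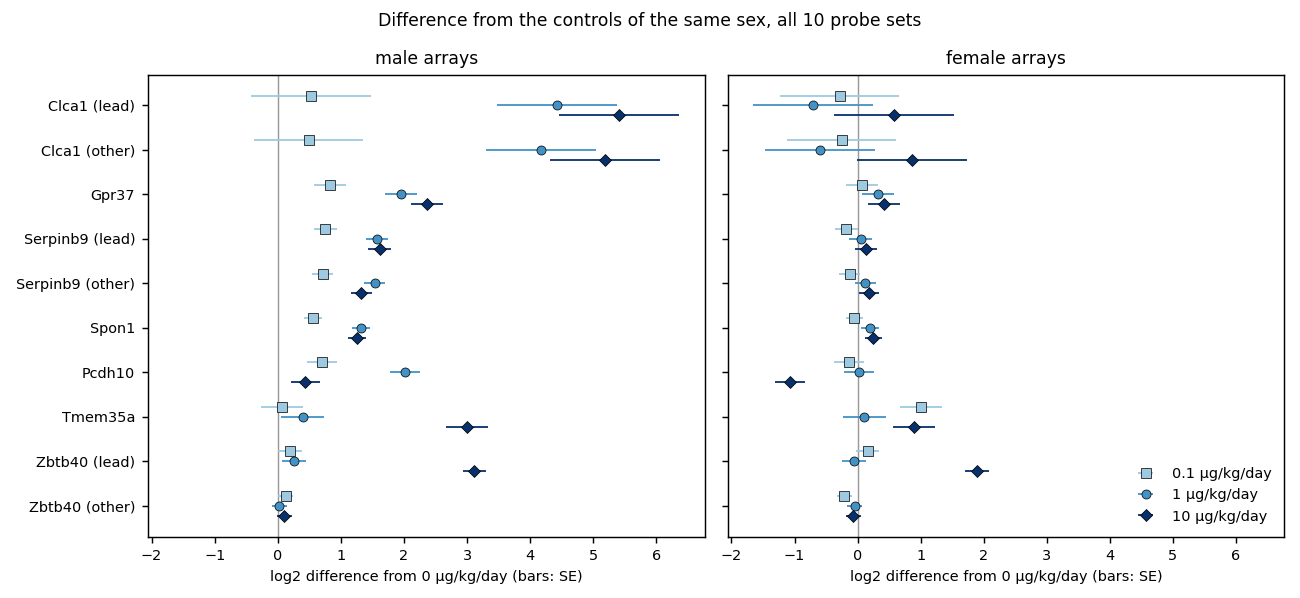
Difference in log2 value from dose 0 (horizontal axis) with its standard error from the fit for all 10 probe sets of the 7 genes (rows), males left and females right, at 0.1, 1 and 10 µg per kg per day. In males Clca1 lies near 4 to 5 at 1 and 10, Pcdh10 is highest at 1 with 2.02, and in females the lead probe set of Zbtb40 stands out at 10 with 1.89.

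Between neighbouring doses, 6 of 7 members had all 3 male arrays at 1 above all 3 at 0.1, beside 5.68% of probe sets. In females 0 of 7 did so, beside 3.01%. Comparisons of 1 with 0.1 and of 10 with 1 use no array at 0, but the choice of the members named no dose. Their counts therefore also follow in part from how the members were picked. At 10 against 1 in males, Gpr37, Tmem35a and Zbtb40 were separated upward, beside 9.25%, and Pcdh10 downward, beside 9.72%. In females the same comparison separated Clca1, Tmem35a and Zbtb40 upward, beside 9.15%, and Pcdh10 downward, beside 5.42%. The order of the male dose means was the dose order itself for Gpr37, Tmem35a, both probe sets of Clca1 and the lead probe sets of Serpinb9 and Zbtb40. The second Serpinb9 probe set had male means of 0.66 at 1 and 0.45 at 10. Spon1 had its highest mean at 1, and its difference of 10 from 1 was -0.06 ± 0.14.

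Marker lists of several cell types differed between doses in the same arrays. The adipocyte list, 23 probe sets of fat cell genes, had 21 lower at 10 than at 0 in males and 14 in females, with 0 higher in either (limma, Benjamini-Hochberg adjusted p below 0.05, as for all calls). Over all probe sets, 7.81% were called higher and 9.64% lower in males, and 0.812% higher and 1.05% lower in females. The keratinocyte list of 11 genes had 8 of 14 probe sets higher at 10 in males and 0 lower, with list means of 1.88, 2.22 and 1.02 at 10 against -0.45, -0.48 and -0.31 at 0. In females 0 of these 14 were called (2 at an unadjusted p below 0.05). The luminal list, which marks the epithelial cells that line the ducts, had 5 of 19 probe sets higher and 1 lower in males. Its male list means were -0.14, 0.31 and 0.26 at 10 against -1.04, -0.59 and 0.03 at 0. In females 3 of the 19 were higher and 0 lower, with list means of 0.63, 0.49 and 0.10 at 10 against -0.14, -0.36 and -0.18 at 0. The part of these lists in the member values was not tested. In whole gland RNA, more cells of a type and more RNA per cell cannot be told apart.

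Serpinb9 and Gpr37 are also known from lymphocytes and from Schwann cells or other glia. The T cell list of 20 probe sets had 0 called in males at 10 (5 at an unadjusted p below 0.05) and list means of -1.56, 0.33 and -1.13 at 0, -0.15, -1.04 and -0.18 at 1, and -0.17, 0.72 and 0.72 at 10. The B cell list of 18 probe sets had 0 called there (14 at an unadjusted p below 0.05), with a median difference of 1.52. Its list means were -1.67, 0.10 and -1.36 at 0, -0.0083, -0.80 and 0.08 at 1, and -0.10, 0.85 and 0.60 at 10. In females 0 of the 18 were called at 10 against 0 (0 unadjusted), and the male minus female difference had 0 called (14 unadjusted). The part of both lists in the Serpinb9 values was not tested. The Schwann cell and nerve list had 2 of 18 probe sets called higher and 4 called lower in the male comparison of 10 with 0, with list means of -0.23 to 0.05 at 10 against -0.01 to 0.22 at 0. The 3′ minus 5′ value of the beta-actin control, a sign of RNA length, was -0.02, 0.16 and 0.05 in males at 10 against -0.56, -0.06 and -0.28 at 0, and its part in the results was not tested. Without the 5 arrays high in hepatocyte markers the male difference of 10 from 0 was 5.05 for Clca1, 2.85 for Gpr37, 1.98 for Serpinb9, 1.27 for Spon1, 2.96 for Tmem35a and 3.29 for Zbtb40, with 1 male array left at 0. At 1 against 0 in males it was 4.74 for Clca1, 2.41 for Gpr37, 1.98 for Serpinb9, 1.30 for Spon1, 2.59 for Pcdh10, 0.33 for Tmem35a and 0.42 for Zbtb40. In females at 10 against 0 it was 0.75 for Clca1, 0.50 for Gpr37, -0.05 for Serpinb9, 0.26 for Spon1, -1.23 for Pcdh10, 1.03 for Tmem35a and 1.74 for Zbtb40. All of these kept the sign they had with every array except Serpinb9 in females. The male array left at 0 was the first, which had the widest spread over probe sets of the male arrays (SD 0.395). It was also the lowest male array at 0 for Gpr37, Serpinb9, Pcdh10 and the lead probe set of Zbtb40.

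The families and partners of the members were read next, from lists of 162 probe sets for 111 genes that exclude the members. The lists were chosen with earlier results of these data known, and some genes in them, such as Pcdh17, have several called probe sets. The shares are therefore a description and no test of the lists. In males at 10, 23 of the 162 rose and 20 fell, which is 26.5% beside 17.5% of all probe sets, and the median difference was 0.0097 beside -0.0053 over all. Without the second male array at 10 the count was 27. In females 6 rose and 0 fell, 3.7% beside 1.86%, and without single arrays the count was as low as 2 (without the second array at 10) or 3 (without the second at 0). Without the hepatocyte arrays, the calls lost among the relatives named below (Wnt4 was not followed) were Cdh2, Gzma, Serpinb10, Edn1 and Thbs2 in males and Clca4l, Pcdh9, Gzma, Gzmb and Zbtb10 in females. The same 5 female calls were lost with the 2 groups fitted alone, as was Serpinb10 in males. Quantile normalization lost Gzma, Serpinb10 and Edn1 in males. The male minus female difference passed for 6 probe sets, 2 positive and 4 negative, which is 3.7% beside 1.28% (0.525% positive and 0.754% negative over all). For 1 against 0.1 the count was 0 in males (11 at an unadjusted p below 0.05) and 0 in females (17), beside 0.0129% of all probe sets in either sex.

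**Figure D4:**
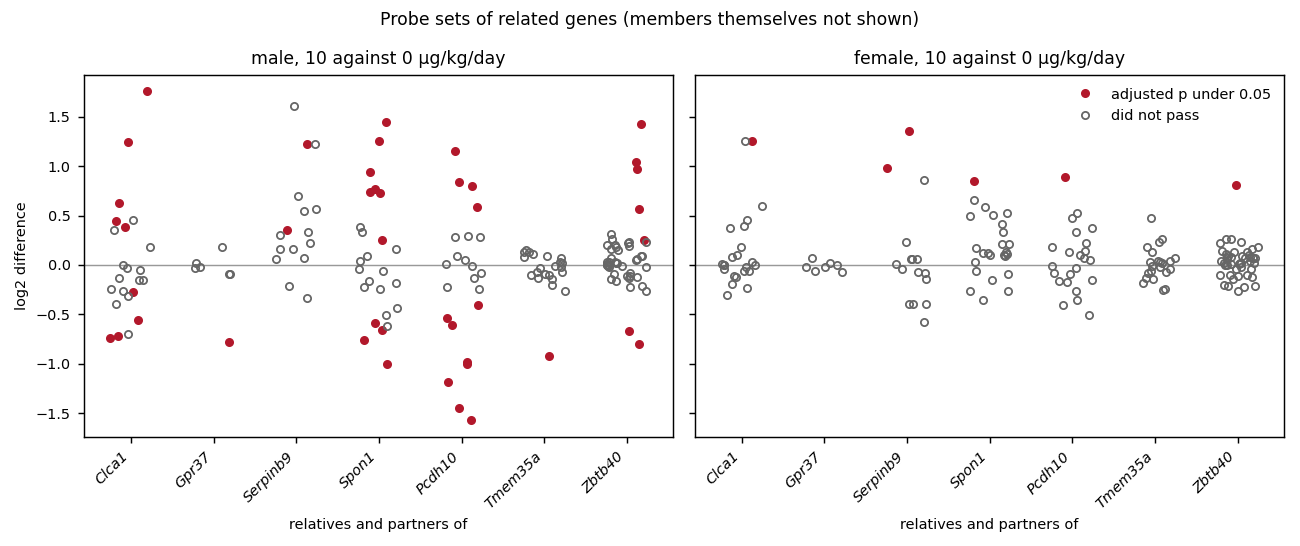
Difference in log2 value of 10 from 0 (vertical axis) for every probe set of the 7 lists of relatives and partners (horizontal axis). Males are left and females right. Filled red points passed limma's adjusted threshold and open points did not. In males 43 of 162 points are filled, above and below 0, and in females 6 are filled, all above 0.

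Clca1 was listed with other chloride channel regulators, channels and mucus genes. Of 23 probe sets for 17 of 20 listed genes, 5 rose and 4 fell in males at 10. Clca4l, a gene named after the same chloride channel regulator family, rose by 1.76 ± 0.24 in males (adjusted p = 7.58e-05) and 1.25 ± 0.24 in females (adjusted p = 0.00917). The female call was lost when the second female array at 10 was left out, at 1.05. Ano10, of the anoctamin family, fell by 0.73 ± 0.11 in males (adjusted p = 0.000231). Ano1, of the same family, rose by 1.24 ± 0.36 in males (adjusted p = 0.0221), a call not followed under the other settings. In females Ano1 was at 1.25 ± 0.36 (adjusted p = 0.0837). Clic4, an intracellular chloride channel protein, fell by 0.72 ± 0.15 (adjusted p = 0.00314), with all 4 of its probe sets lower.

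Pcdh10 was listed with other protocadherins, with cadherins, and with Nckap1 and Wasf1, which belong to neither family. Of 23 probe sets for 13 of 19 listed genes, 4 rose and 8 fell in males at 10. A probe set of Nckap1 was among those that fell, at -0.41 ± 0.10 (adjusted p = 0.00802), a call not followed under the other settings. Pcdh17, another delta-type protocadherin, fell by 1.57 ± 0.16 (adjusted p = 7.07e-06), with all 3 probe sets lower. Cdh2, N-cadherin, fell by 0.61 ± 0.12 (adjusted p = 0.00246), and Cdh11, a mesenchymal cadherin, rose by 0.83 ± 0.17 (adjusted p = 0.00243) on 1 probe set, with 2 of 3 of the same sign. In females 1 of 23 was called, Pcdh9, which rose by 0.89 ± 0.19 (adjusted p = 0.0201). That call was lost without the second or the third female array at 0, at 0.85 and 0.81, or the second at 10, at 0.71. Pcdh10 itself was lower in females at that dose, so the 2 protocadherins lay on opposite sides of 0.

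For Serpinb9, the list held other clade B serpins and the granzyme and perforin genes, 16 probe sets for 13 of 19 genes. In males at 10, 2 rose and 0 fell. Gzma, granzyme A, rose by 1.22 ± 0.34 in males (adjusted p = 0.0174) and by 1.36 ± 0.34 in females (adjusted p = 0.0426). Gzmb, which encodes the protease that Serpinb9 inhibits, rose by 0.98 ± 0.23 in females (adjusted p = 0.0319), and in males its value was 0.55 ± 0.23 (adjusted p = 0.106). Serpinb10 rose by 0.36 ± 0.11 in males (adjusted p = 0.0275). These calls were close to the threshold. The male call of Gzma was lost without the first male array at 0, at 1.10, or the second at 10, at 1.00. Its female call held in 1 of 6 fits that each left out 1 array, with values of 1.07 to 1.55, and that of Gzmb in 2 of 6, with values down to 0.77. The Serpinb10 call held in 2 of 6, with values down to 0.23. T cell list means overlapped between 10 and 0 in both sexes, and the median difference over that list was 1.34 in males and -0.54 in females. The part of T cells in the granzyme values was not tested.

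Of the receptors and ligands related to Gpr37, 7 of 13 genes had a probe set and 1 was called in males at 10. This was Edn1, the peptide endothelin, which fell by 0.78 ± 0.19 (adjusted p = 0.00793). The call was lost after quantile normalization, at -0.67, and without the hepatocyte arrays, at -0.94. In the same comparison 10 of 14 probe sets of the endothelial list were lower and 0 higher, and the part of this in the Edn1 value was not tested. In females limma called 0 of 7, and 0 passed an unadjusted p below 0.05. Psap, whose product prosaposin has been proposed as a ligand of the receptor, was at -0.07 ± 0.07 there (adjusted p = 0.776).

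All 20 genes of nicotinic receptor subunits and their chaperones listed with Tmem35a had probe sets, 22 in all. In males at 10, limma called 1 of them lower and 0 higher. It was Chrna1, the muscle-type alpha subunit, which fell by 0.92 ± 0.26 (adjusted p = 0.0194), with the call lost without the first male array at 0, at -0.71, or the second at 10, at -0.83. The skeletal muscle list had list means of 1.03, -1.0 and -1.82 in males at 10 against 1.21, -0.09 and -0.47 at 0, with 2 of 20 probe sets lower. In females 0 of 22 were called (1 at an unadjusted p below 0.05), and Chrnb4 was at -0.26 ± 0.12 (adjusted p = 0.352).

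The BTB zinc finger list of Zbtb40, with genes of the Wnt4 locus, had 46 probe sets for 27 of 31 genes, of which 5 rose and 2 fell in males at 10 and 1 rose in females. Zbtb43 rose by 1.04 ± 0.12 in males (adjusted p = 1.68e-05) and was at 0.07 ± 0.12 in females, and the male minus female difference of 0.97 ± 0.17 passed (adjusted p = 0.0127). Zbtb20 fell by 0.80 ± 0.13 in males (adjusted p = 0.000407), with 2 of its 6 probe sets called and 5 of the same sign. Zbtb24 rose by 0.56 ± 0.11 in males (adjusted p = 0.00157), with 1 of 2 probe sets of that sign. In females Zbtb10 rose by 0.81 ± 0.13 (adjusted p = 0.00432), a call lost with the 2 groups fitted alone, at 0.81, and without the hepatocyte arrays, at 0.86. Wnt4, a neighbour of Zbtb40 in the rat gene order and a Wnt ligand of the mammary epithelium, was named after its values were seen. It rose by 0.97 ± 0.22 in males (adjusted p = 0.00512) and was at 0.08 ± 0.22 in females. At 1 against 0 in males Wnt4 differed by 1.29 ± 0.22, where the lead probe set of Zbtb40 differed by 0.26 ± 0.19.

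The list of Spon1 held other proteins with thrombospondin type 1 repeats and its reported binding partners, 25 probe sets for 14 of 17 genes. In males at 10, 7 rose and 4 fell. Spon2, a second spondin, rose by 1.44 ± 0.18 (adjusted p = 3.39e-05), and in females its value was 0.66 ± 0.18 (adjusted p = 0.063). Thbs2, a thrombospondin of the matrix, rose by 0.77 ± 0.16 in males (adjusted p = 0.00286). Aplp2, a relative of the amyloid precursor protein, fell by 1.00 ± 0.13 (adjusted p = 7.53e-05), with 4 of 5 probe sets of that sign. In females Rspo3, a secreted amplifier of Wnt signalling, rose by 0.85 ± 0.13 (adjusted p = 0.0018) on 1 of 2 probe sets, a call that held in every setting tried.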

How the data were processed

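Each of the 24 arrays came from total RNA of mammary glands, labelled with biotin, per the labels' protocols. The deposited table holds signed log2 values, as read here, for 31099 probe sets. GCOS is named per the submitters' processing notes, with no version or role, and how the values were summarized, normalized and centred, and their log base, is not given in the sources used here. Of the probe sets, 57 controls were left out, and 20826 of the other 31042 have 1 annotated gene, 436 several and 9780 none. By gene number, 20758 matched the RefSeq gene table. Array medians lay between -0.0176 and 0.0132, 0 values were missing and 0 pairs of arrays were identical.

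Groups were taken from the sample titles. All 24 arrays were fitted with 8 group means in limma 3.58.1 (R 4.3.3, 16 residual and 2.95 prior degrees of freedom), with Benjamini-Hochberg adjustment over the whole table and a threshold of 0.05. The code was tested on simulated data. The members and lists were chosen with earlier results of these data known. No member was tested, also not at 1 against 0.1 as planned, since the choice names no dose. For each list up to 3 called genes with the smallest p are named, or up to 2 where none passed. Wnt4, Nckap1 and Ano1 are named besides. Likeness is Pearson's r of a probe set with a member's lead probe set over 24 arrays, each value minus the mean of its sex. For the hepatocyte setting, the 5 arrays with the highest list means were taken. Other alternatives were fits of the compared groups alone, array weights, quantile normalization, the more variable probe sets alone, single arrays left out and, for the difference between sexes, replicate number as a block. The number of arrays limits the precision.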

Additional observations from a re-analysis of the deposited data

Results flagged for a closer look

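In 4 relatives the response to 10 against 0 differed between the sexes by limma's test of that difference, given as male minus female. It was -1.09 for Pcdh17 (adjusted p = 0.0239), -0.92 for Zbtb20 (adjusted p = 0.012), 0.97 for Zbtb43 (adjusted p = 0.0127) and 0.70 for Zbtb24 (adjusted p = 0.0298). The Pcdh17 and Zbtb20 values come from other probe sets of these genes than the male differences given above. All 3 probe sets of Pcdh17, all 6 of Zbtb20 and 1 of 2 of Zbtb24 had the sign given. The calls of Zbtb20 and Zbtb43 held in each of 12 fits without 1 array and in the 6 other settings. Those of Pcdh17 held in 9 of 12 and 3 of 6, and those of Zbtb24 in 4 of 12 and 4 of 6. A fit with the replicate number as a block lost the calls of Pcdh17 (-1.09) and Zbtb24 (0.70).

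In 2 members all 3 arrays of 1 sex lay above their mean at 0 and all 3 of the other sex below it, which was not tested. At 10, Pcdh10 did so with males above and females below, a male minus female difference of 1.51. At 1, the lead probe set of Zbtb40 did so with a difference of 0.32, which is close to its spread within groups.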

How the results depend on the processing

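Of 177 member values under another setting, 161 moved by less than the spread between replicates and 16 moved further. Counts of called probe sets depended more on the setting. For 10 against 0 in males, 5419 were called with all arrays, 8955 with array weights, 3541 after quantile normalization, 3302 without the 5 arrays high in hepatocyte markers, and 2685 (without the first male array at 0) to 5239 without single arrays, with 2919 without the second and 3497 without the third male array at 10. The relatives called there numbered 43, and 27 (without the second male array at 10) to 42 without single arrays. For 10 against 0 in females, 577 were called, with 127 from the 2 groups alone, 1218 with array weights, 919 after quantile normalization, 90 without the hepatocyte arrays and 158 to 552 without single arrays (158 without the first array at 10, 231 without the second, and 164 to 260 without one at 0). The relatives called there numbered 6, with 1 from the 2 groups alone, 12 with array weights, 1 without the hepatocyte arrays and 2 to 7 without single arrays. For the difference between the sexes, 397 were called, with 3491 under array weights, 135 after quantile normalization and 65 to 575 without single arrays, 9 of which (each male array at 10 and all but 1 in each of the other 3 groups) took it to 206 or lower. For 1 against 0.1 in males, 4 were called, with 0 from the 2 groups alone, 40 under array weights, 8 over the more variable probe sets, 17 after quantile normalization and 0 to 4 without single arrays (4 without the second array at 0.1 and 2 or fewer without any other). In females 4 were called, with 0, 725 and 0 from the 2 groups alone, array weights and quantile normalization, 0 without the hepatocyte arrays and 0 to 18 without single arrays (18 without the third array at 1, 15 without the first at 0.1 and 2 or fewer otherwise). At female 0.1 the array weights were 0.16, 3.48 and 0.45. The causes were not tested.

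Of the named relatives, 10 of 16 calls in males, 1 of 6 in females and 2 of 4 between the sexes held in every setting. A fit with the replicate number, shared by a male and a female array, as a block gave 443 calls between the sexes beside 397, but lost those of Pcdh17 and Zbtb24 among the 4 named relatives. The correlation of same-numbered arrays after removing group means ran from -0.49 to 0.59, with 5 of 12 pairs above 0.1 (0.45 to 0.59) and 1 of 12 male arrays closest to its own number, so the numbers were not read as pairs. Within a sex the groups share no number.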

Other observations

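The genes whose probe sets ran most like a member over the 24 arrays are given as a description, since arrays share their dose groups. Zbtb40 ran closest to Extl1 (r = 0.93), Fcgbp (r = 0.92) and Clca4l (r = 0.91). Fcgbp encodes a mucus protein, and its difference of 10 from 0 was 1.88 in males and 0.77 in females. Tmem35a ran closest to Vegfc, Adcyap1r1 and Mgp (r = 0.93, 0.93 and 0.92). Vegfc, a growth factor of lymphatic vessels, differed by 0.73 in males and 0.33 in females. Pcdh10 ran closest to Sptssb (r = 0.84), Msx2 (r = 0.80) and Trerf1 (r = 0.78). In males Msx2, a homeobox gene, was higher by 1.38 at 1 and 0.80 at 10, and in females at 10 its difference was -0.68. Clca1 ran closest to Tro, Ptprz1 and Areg (r = 0.89, 0.88 and 0.88). Gpr37 ran closest to Egr2, Stra6 and Sdc1 (r = 0.95, 0.93 and 0.93). Serpinb9 and Spon1 ran closest to one another among members (r = 0.92), with Cd200 (r = 0.92) beside Serpinb9 and Mmd2 (r = 0.89) beside Spon1, and Gpr37 next to both (r = 0.90 and 0.91). Each of these pairs had a lower r within the 12 female arrays than within the 12 male arrays. Clca1 with Tro gave 0.94 in males and 0.68 in females. Serpinb9 with Spon1 gave 0.96 in males and 0.62 in females, Serpinb9 with Gpr37 0.95 and 0.30, and Gpr37 with Egr2 0.98 and 0.57. Zbtb40 with Extl1 gave 0.96 and 0.91, and Pcdh10 with Sptssb 0.852 and 0.849.

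Neighbours in the rat gene order were read after their values were seen and were not tested as a group. Beside Clca1, Clca4 differed by -0.03 ± 0.12 and Clca2 by 0.18 ± 0.14 for 10 against 0 in males, while Clca4l differed by 1.76 ± 0.24. Beside Serpinb9, Serpinb9b differed by 0.09 ± 0.08 and Serpinb6b by 1.61 ± 0.59, which limma did not call (adjusted p = 0.0657). The probe sets of Serpinb1a there differed by 0.06 ± 0.20 and -0.34 ± 0.14. Beside Gpr37, the probe sets of Tmem229a disagreed, with 1.69 ± 0.30, -0.09 ± 0.07 and -0.01 ± 0.08. Beside Zbtb40, Epha8 differed by -0.13 ± 0.15.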
